A study of Drosophila melanogaster with 9 samples.

Results

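The enok1 and enok2 mutant alleles of the histone acetyltransferase gene enok were set directly against each other by the small RNAs of their germline clone ovaries. The comparison took every library labelled enok1 or enok2, which gave 6 of the 9 libraries, 3 for each allele, and the 3 WT libraries are shown only as a frame. Each library was made from total RNA of ovaries of adults aged 3-5 days, and the study's methods restrict the egg chambers to stages 5 to 14. The enok1 females carried hs-Flp / + with FRTG13, enok[1] / FRTG13, ovo[D1-18], the enok2 females the same with enok[2], and the WT females the same with an FRTG13 arm that holds no enok mutation. A heat shock drives the Flp recombinase, and the dominant ovo[D1-18] allele stops egg chambers whose germline did not recombine, so that the germ cells of later egg chambers are homozygous for the FRTG13 arm. The follicle cells around these clones are not selected in this way, so a library mixes mutant germline with somatic RNA. According to the study, the enok1 allele ends the protein early and removes much of the acetyltransferase domain and all of the C-terminal region. The enok2 allele exchanges a single conserved residue within that domain and leaves the protein at full length. The study describes the acetyltransferase function as abolished in both alleles. The question put to the data was whether the alleles differ in the level or the make-up of their piRNAs.

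The piRNAs (PIWI-interacting RNAs) guide PIWI proteins to transposon transcripts and silence them in the germline. Most are cut from long precursors that are transcribed from piRNA clusters, genomic regions filled with transposon fragments. Dual-strand clusters such as 42AB give piRNAs from both strands in germ cells and depend on the HP1 family protein Rhino, whereas the uni-strand cluster flam (flamenco) serves the follicle cells. A further class is cut from the 3′ untranslated regions (UTRs) of messenger RNAs. Enok, the fly member of the KAT6 family, acetylates histone H3 at lysine 23.

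Each level below is an abundance, the small RNA signal of a feature which the authors scaled to the microRNAs (miRNAs) sequenced with it. A share is the abundance of a feature as a percent of its library's cluster total, summed over both strands of the 140 clusters, and does not depend on the miRNA scaling. Both were used because 1 library stood apart. In replicate 1 of enok1, the median sense cluster had 74.3% of its level in the other enok1 libraries, and the median antisense cluster likewise 74.3%. Sense 3′ UTRs were less affected, with a median of 88.8%. Between replicates of an allele, sense clusters differed by a median of 0.08 to 0.48 in log2 abundance but only by 0.06 to 0.10 in log2 share. The clusters of the mutant libraries held signal worth 810068 to 1109172 reads, with the worth of 1 read estimated from low 3′ UTR values. The highest of these estimates was 1109172 in enok1 replicate 1, close to 1104904 in enok1 replicate 2. They are rough, as only 34.1 to 36.9% of low values were whole reads. In enok1 replicate 1 the worth of 1 read was estimated at 0.2715 units of abundance, against 0.379 to 0.4855 in the other mutant libraries. Whether fewer cluster reads or the miRNA scaling account for its low level was not tested. The enok gene itself has no 3′ UTR feature analysed here, so the labels could not be checked by it. Fewer cells of a type and less small RNA per cell cannot be told apart in these libraries.

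The total output of the clusters was compared first, and the alleles did not separate. The cluster total of both strands was 301140, 418758 and 396323 in the enok1 libraries and 438338, 393288 and 409063 in the enok2 libraries. The groups overlapped, and only replicate 1 of enok1 lay apart. The mean of enok2 was 111.2% of that of enok1 (2-sided exact permutation p = 0.5, n = 3 against 3, smallest possible p 0.1), and 101.5% without replicate 1 of enok1. Both means were below that of WT, which had a total of 567965 ± 17097 (SD, n = 3).

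The make-up of the total was close as well. Sense piRNAs made up 58.4% ± 0.22 of the enok1 and 58.1% ± 0.43 of the enok2 cluster total (SD, n = 3 each, exact permutation p = 0.2), against 55.2% in WT. The cluster 42AB, the largest source in WT with 20.4% of the total, held 5.08% ± 0.17 and 5.38% ± 0.25 in the same order (exact permutation p = 0.2). The somatic cluster flam held 7.36% ± 0.71 and 6.53% ± 0.41 (exact permutation p = 0.3), against 4.96% in WT. In all 3 measures the libraries of the alleles overlapped.

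**Figure D1:**
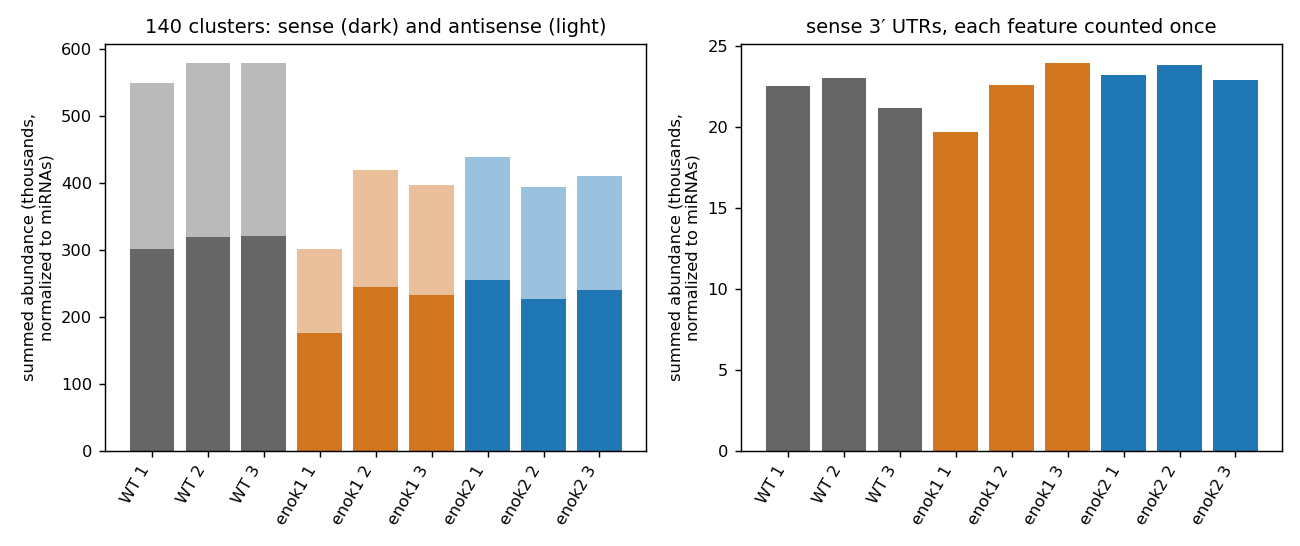
Bars give, for each of the 9 libraries, the summed abundance over the 140 piRNA clusters (left, sense dark and antisense light) and over the sense 3′ UTR features (right), in miRNA-normalized units. Replicate 1 of enok1 is the lowest mutant library in both panels, and the other 5 mutant libraries have cluster totals between 393288 and 438338.

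Across single clusters the alleles were also close. In abundance 97.9% of the 140 clusters differed by less than 1.5-fold between the alleles for sense and likewise 97.9% for antisense piRNAs. The same held for 96.4% and 97.1% of clusters in share. The 95% confidence interval of the difference in abundance lay within 2-fold in 138 sense and 137 antisense clusters. These intervals reached 0.36 (sense) and 0.37 (antisense) in log2 to either side for every cluster, so a cluster's own spread does not enter this count. In log2 abundance the median cluster was higher in enok2 by 0.14 (sense) and 0.11 (antisense), whereas the median difference in log2 share was −0.02 and −0.05. Without enok1 replicate 1 the median difference in abundance was 0.003 (sense) and −0.03 (antisense). Of the clusters, 25 sense and 29 antisense ones had a negative difference in abundance.

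Of the 140 sense clusters, 2 were called in abundance (limma, adjusted p under 0.05), which is 1.43% of those tested, and 8 in share, which is 5.71%. On the antisense strand 3 were called in abundance (2.14%) and 3 in share (2.14%). In abundance, 1 sense and 2 antisense clusters were higher in enok2 and 1 on each strand was lower. In share, 2 sense and 2 antisense clusters were higher, and 6 sense and 1 antisense cluster were lower. Together these were 11 different clusters, of which 4 (clusters 4, 11, 97 and 98) were called by both measures. At an unadjusted p under 0.05, limma gave 13 sense clusters in abundance (9.29%) and 28 in share (20%), and 13 (9.29%) and 32 (22.9%) antisense ones. With the variance of each cluster alone in place of limma's shared variance, 0 clusters passed the adjusted threshold in any of the 4 comparisons, and 7, 22, 4 and 29 clusters in the same order had an unadjusted p below 0.05.

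**Figure D2:**
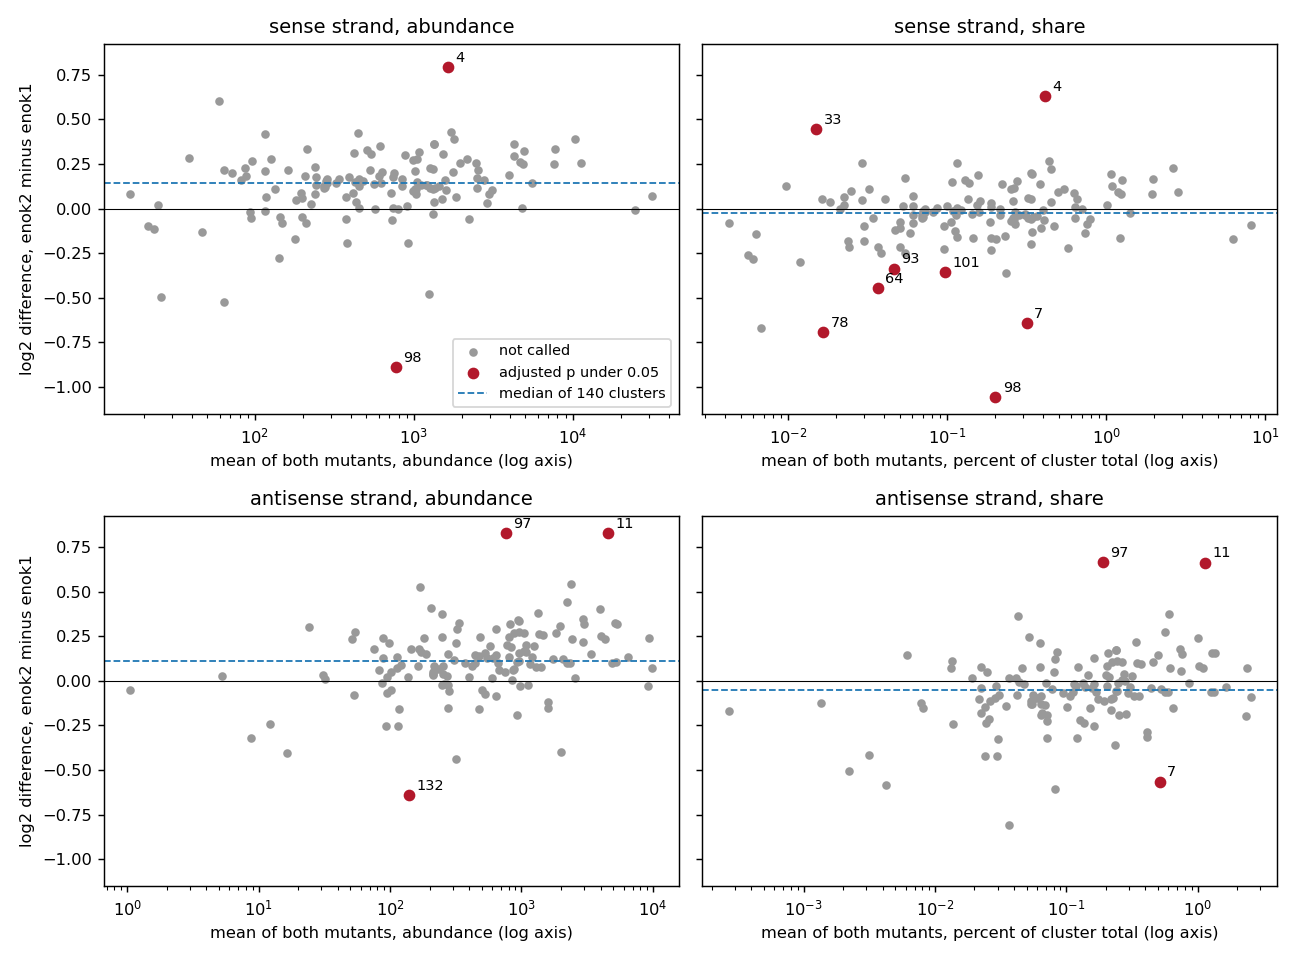
Each point is 1 of the 140 clusters, with the mean level of both mutants on the x axis (log axis, abundance or percent of the cluster total) and the log2 difference of enok2 minus enok1 on the y axis; red points with cluster numbers passed an adjusted p under 0.05 and the dashed line is the median cluster. The abundance panels are centred above 0, at 0.14 and 0.11, and the share panels close to 0.

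The clusters that stood higher in enok2 were clusters 4, 11 and 97, each on its main strand. In both alleles all 3 were far below WT, and enok2 kept more of the WT level than enok1. Cluster 11, which gives 6.97% sense piRNAs in WT and thus mostly antisense ones, had an antisense abundance of 2636, 3686 and 3552 in enok1 and 7041, 5442 and 5042 in enok2. All enok2 libraries lay above all enok1 libraries, with 16.3% of the WT level left in enok2 and 9.20% in enok1. The log2 difference was 0.83 ± 0.19 (SE, limma adjusted p = 7.1e-04), a 1.78-fold higher mean. In share the antisense strand held 0.875%, 0.880% and 0.896% of the cluster total in enok1 and 1.61%, 1.38% and 1.23% in enok2, a log2 difference of 0.66 ± 0.10 (limma adjusted p = 0.0177). The enok1 libraries were nearly equal in share, and without replicate 1 of enok1 this difference was again 0.66. Groups that did not overlap with enok2 on the higher side made up 13.6% of antisense clusters in abundance and 9.29% in share. The call in abundance was lost without enok1 replicate 1 (adjusted p = 0.101) or enok2 replicate 1 (0.196), and the call in share without enok1 replicate 1 (0.0776), enok1 replicate 2 (0.0901) or enok2 replicate 2 (0.0810).

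Cluster 4, which is 95.4% sense in WT, had a sense abundance of 956, 1329 and 1298 in enok1 and 2503, 1940 and 1771 in enok2, against 13368, 13145 and 11544 in WT. The groups did not overlap, which held for 15.7% of sense clusters with enok2 on the higher side. As a percent of WT, 9.42% was left in enok1 clones against 16.3% in enok2 clones, with a log2 difference of 0.79 ± 0.18 (SE, limma adjusted p = 0.0013). This call was lost without enok1 replicate 1 (adjusted p = 0.0598) or enok2 replicate 1 (0.296). In share the log2 difference was 0.63 ± 0.10 (limma adjusted p = 0.00894) and was called with any 1 library left out. The minor antisense strand of cluster 4 had 141, 128 and 142 in enok1 and 227, 177 and 192 in enok2, a log2 difference of 0.53 that did not pass (limma adjusted p = 0.133).

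Cluster 97, also mostly antisense, had an antisense abundance of 450, 583 and 613 in enok1 and 1148, 927 and 848 in enok2. Again the groups did not overlap, and enok2 kept 21.3% of WT against 12% in enok1. The log2 difference was 0.83 ± 0.19 in abundance (limma adjusted p = 7.1e-04) and 0.66 ± 0.09 in share (limma adjusted p = 0.0177). The abundance call was lost without enok1 replicate 1 (adjusted p = 0.101) or enok2 replicate 1 (0.196). The share call was lost without replicate 1 or 2 of enok1 (0.0776 and 0.0901) or replicate 1 or 2 of enok2 (0.0501 and 0.0810).

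On their main strands these 3 clusters differed between the alleles by similar amounts. Their minor strands differed by unlike amounts, with log2 differences in abundance of 0.53 (cluster 4), 0.42 (cluster 11) and 0.23 (cluster 97). The ratio of sense piRNAs of cluster 4 to antisense piRNAs of cluster 11 was 0.351 to 0.365 in the 6 mutant libraries and 0.344 to 0.362 in WT. The ratio of antisense piRNAs of cluster 97 to those of cluster 11 was 0.158 to 0.173 in the mutants and 0.127 to 0.130 in WT. Because of these ratios, the 3 clusters are not counted here as 3 independent differences. Some low 3′ UTR values were fractions of a read, but cluster values were not examined for this. Whether shared sequences link them was not tested. Without them, enok2 had 110.2% of the cluster total of enok1.

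Cluster 33 was the fourth to stand higher in enok2, in share alone. Its sense abundance was 35.3, 56.5 and 51.1 in enok1 and 73.5, 68.5 and 72.2 in enok2, with all enok2 libraries above all enok1 libraries, as in 15.7% of sense clusters in abundance. In share the alleles did not overlap either, as in 12.1% of sense clusters with enok2 on the higher side. The log2 difference in abundance was 0.60 ± 0.18 (limma adjusted p = 0.0532, called without enok1 replicate 2 at 0.0028), and that in share 0.44 ± 0.07 (limma adjusted p = 0.00894), which was called whichever library was left out. It had 8.94% of the WT level in enok1 and 13.4% in enok2. Its antisense strand had 23.1% and 25.2% of WT, with a log2 difference in share of −0.04 (limma adjusted p = 0.655).

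**Figure D3:**
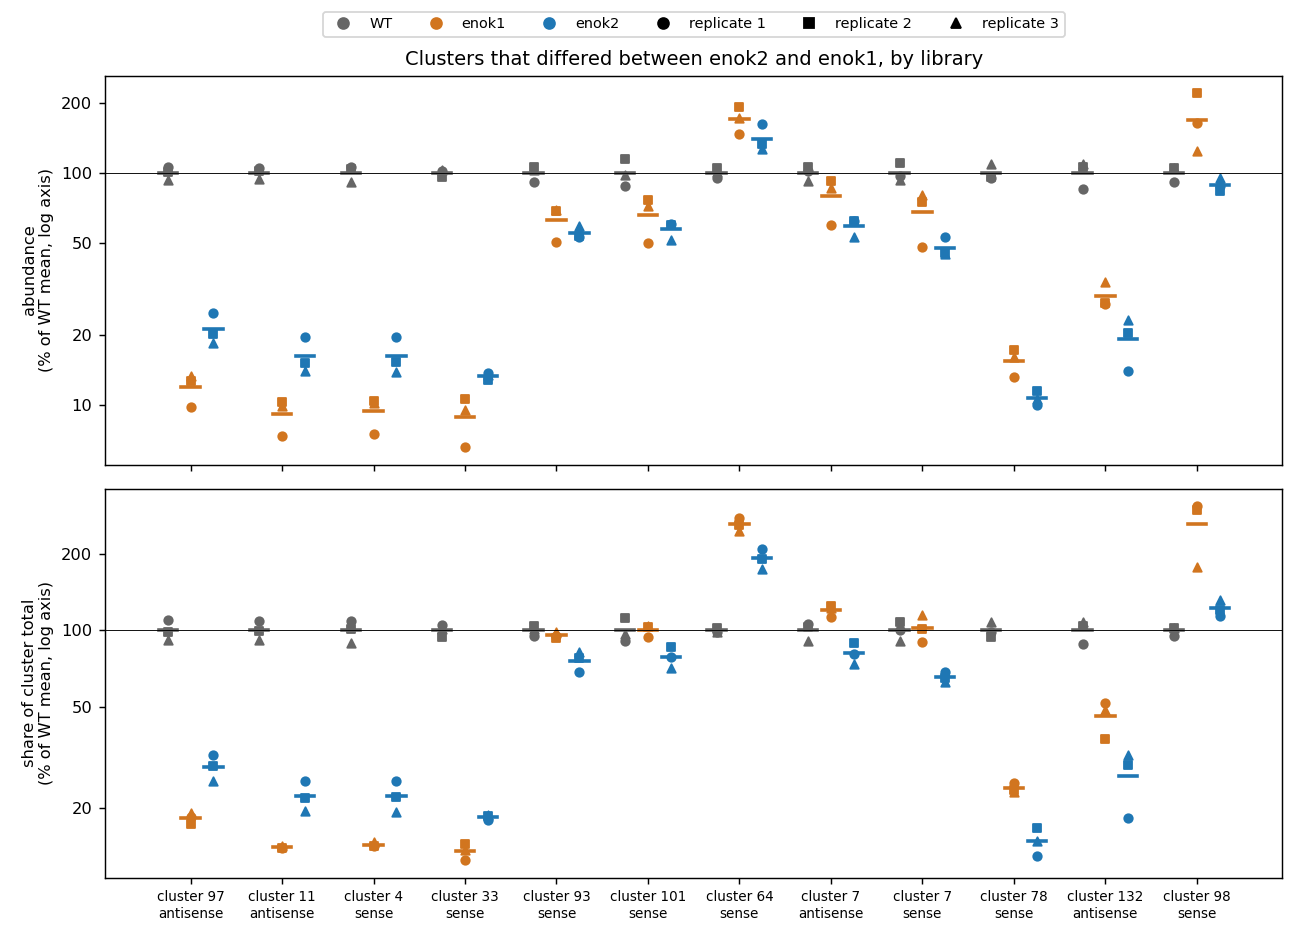
Points give single libraries (shape marks the replicate, colour the group) and short lines the group means for the 12 cluster strands called in abundance or share, as a percent of the WT mean on a log axis, for abundance (top) and share of the cluster total (bottom). In the top panel clusters 97, 11, 4 and 33 have means below 25% of WT in both alleles, with enok2 above enok1, and cluster 98 lies above WT in enok1 alone.

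The remaining calls went the other way. Cluster 98 differed most in size. Its sense abundance was 971, 1307 and 738 in enok1 and 524, 495 and 566 in enok2, against 544, 621 and 621 in WT. All enok1 libraries exceeded every WT and enok2 library, and enok1 had 169% of the WT mean while enok2 had 88.8%. Groups without overlap and lower in enok2 made up 2.14% of sense clusters in abundance and 12.1% in share. The log2 difference was −0.89 ± 0.18 in abundance (limma adjusted p = 2.3e-04) and −1.06 ± 0.20 in share (limma adjusted p = 0.0193). The spread within enok1 was wide, with a share of 0.322%, 0.312% and 0.186%, and the enok2 libraries held 0.119%, 0.126% and 0.138%. The antisense strand of the same cluster did not follow, with 60.1% of WT in enok1, 65.9% in enok2 and a log2 difference in share of −0.02 (limma adjusted p = 0.812). The abundance call was lost without enok1 replicate 1 (adjusted p = 0.0598), and the share call without enok2 replicate 1 (0.109) or enok2 replicate 2 (0.0926).

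Cluster 7 was the only cluster called on both strands, in share. Its sense strand held 0.342%, 0.383% and 0.437% of the cluster total in enok1 and 0.259%, 0.247% and 0.236% in enok2, and its antisense strand 0.578%, 0.640% and 0.631% against 0.414%, 0.459% and 0.379%. The groups did not overlap on either strand, as in 12.1% of sense and 23.6% of antisense clusters with enok2 on the lower side, and the log2 differences were −0.64 ± 0.09 (limma adjusted p = 0.00894) and −0.57 ± 0.08 (limma adjusted p = 0.0177). In abundance the alleles overlapped, since the low replicate 1 of enok1 had 1030 on the sense strand beside 1605 and 1732, and enok2 had 1135, 970 and 966. Without that library the sense difference in abundance was called as well (limma adjusted p = 0.0093). The sense call in share held in every leave-one-out fit. The antisense call was lost without enok1 replicate 1 (adjusted p = 0.0776), enok1 replicate 2 (0.0901) or enok2 replicate 1 (0.0973).

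Cluster 78 was strongly reduced in both alleles and lower in enok2. Its sense abundance was 64.7, 84.3 and 79.0 in enok1 and 48.8, 56.4 and 51.9 in enok2, which is 15.6% and 10.7% of WT. The libraries did not overlap in either measure, which for lower values in enok2 was so in 2.14% of sense clusters in abundance and 12.1% in share. The log2 difference was −0.52 ± 0.18 in abundance (limma adjusted p = 0.16, called without enok1 replicate 1 at 0.0093) and −0.69 ± 0.09 in share (limma adjusted p = 0.00894), the latter called with any 1 library left out. Its antisense strand had 22.7% and 22.1% of WT.

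Cluster 132 was called on its antisense strand in abundance only. It had 156, 157 and 193 in enok1 and 80.4, 117 and 132 in enok2, a log2 difference of −0.64 ± 0.19 (limma adjusted p = 0.0284), with 29.6% and 19.2% of WT left. In share its log2 difference was −0.81 ± 0.23 (limma adjusted p = 0.118). The call was lost without enok1 replicate 1 (adjusted p = 0.262), enok1 replicate 3 (0.318), enok2 replicate 1 (0.988) or enok2 replicate 2 (0.117). All enok2 libraries lay below all enok1 libraries, as in 2.14% of antisense clusters in abundance.

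Clusters 64, 93 and 101 were lower in enok2 in sense share, with smaller differences. Cluster 64 held 0.0447%, 0.0419% and 0.0397% in enok1 and 0.0338%, 0.0309% and 0.0282% in enok2 (log2 difference −0.45 ± 0.08, limma adjusted p = 0.0193), and in both alleles its abundance was above WT, at 170% and 140%. In share the groups did not overlap, as in 12.1% of sense clusters with enok2 on the lower side, and the call was lost without enok2 replicate 2 (adjusted p = 0.0907). Clusters 93 and 101 had log2 differences of −0.34 and −0.36 (limma adjusted p = 0.0469 for each). Cluster 93 was no longer called without any of 5 libraries, all but enok2 replicate 3, with adjusted p between 0.0616 and 0.126. Cluster 101 was no longer called without enok1 replicate 2 (0.0932), enok1 replicate 3 (0.0737), enok2 replicate 1 (0.167) or enok2 replicate 3 (0.139).

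The largest clusters in WT showed no called difference other than in clusters 4 and 11. The sense abundance of 42AB was 7992, 12120 and 10655 in enok1 and 13594, 10950 and 11844 in enok2, so that 16.5% and 19.5% of WT remained. The groups overlapped, and the log2 difference of 0.26 had a 95% confidence interval from −0.11 to 0.62 (limma adjusted p = 0.643). In share that difference was 0.09, with an interval from −0.07 to 0.25. Cluster 5, which was also strongly reduced, kept 29.4% and 29.3% of its WT sense level, with a log2 difference in abundance of 0.003, with an interval from −0.36 to 0.37. In share its differences were −0.16 (sense, limma adjusted p = 0.232) and −0.32 (antisense, interval −0.59 to −0.04, limma adjusted p = 0.170). Every enok2 library was lower in share on both strands, as in 12.1% of sense and 23.6% of antisense clusters.

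Among the named clusters near or above WT in both alleles, the uni-strand clusters flam and cluster 2 kept 95.8% and 108% of their WT sense abundance in enok1 clones, and 94.8% and 114% in enok2 clones. Their log2 differences in sense abundance were −0.01 (95% interval −0.37 to 0.36) and 0.07 (−0.29 to 0.44). In sense share they were −0.17 and −0.09 (limma adjusted p = 0.321 and 0.539). The antisense share of flam was lower in every enok2 library, as in 23.6% of antisense clusters (log2 difference −0.15, interval −0.29 to −0.01, limma adjusted p = 0.196). Cluster 73, which exceeded WT in both alleles, had an antisense abundance of 1385, 2076 and 2272 in enok1 and 2567, 2570 and 2480 in enok2. All enok2 libraries were higher, but neither the log2 difference of 0.44 in abundance (limma adjusted p = 0.371) nor that of 0.28 in share (limma adjusted p = 0.151) passed, and groups without overlap and higher in enok2 made up 13.6% of antisense clusters. Cluster 29, among the most reduced, kept 6.38% and 5.76% of its WT sense level, with a log2 difference in share of −0.30 ± 0.08 that did not pass (limma adjusted p = 0.0841) except without enok1 replicate 3 (0.0156).

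**Figure D4:**
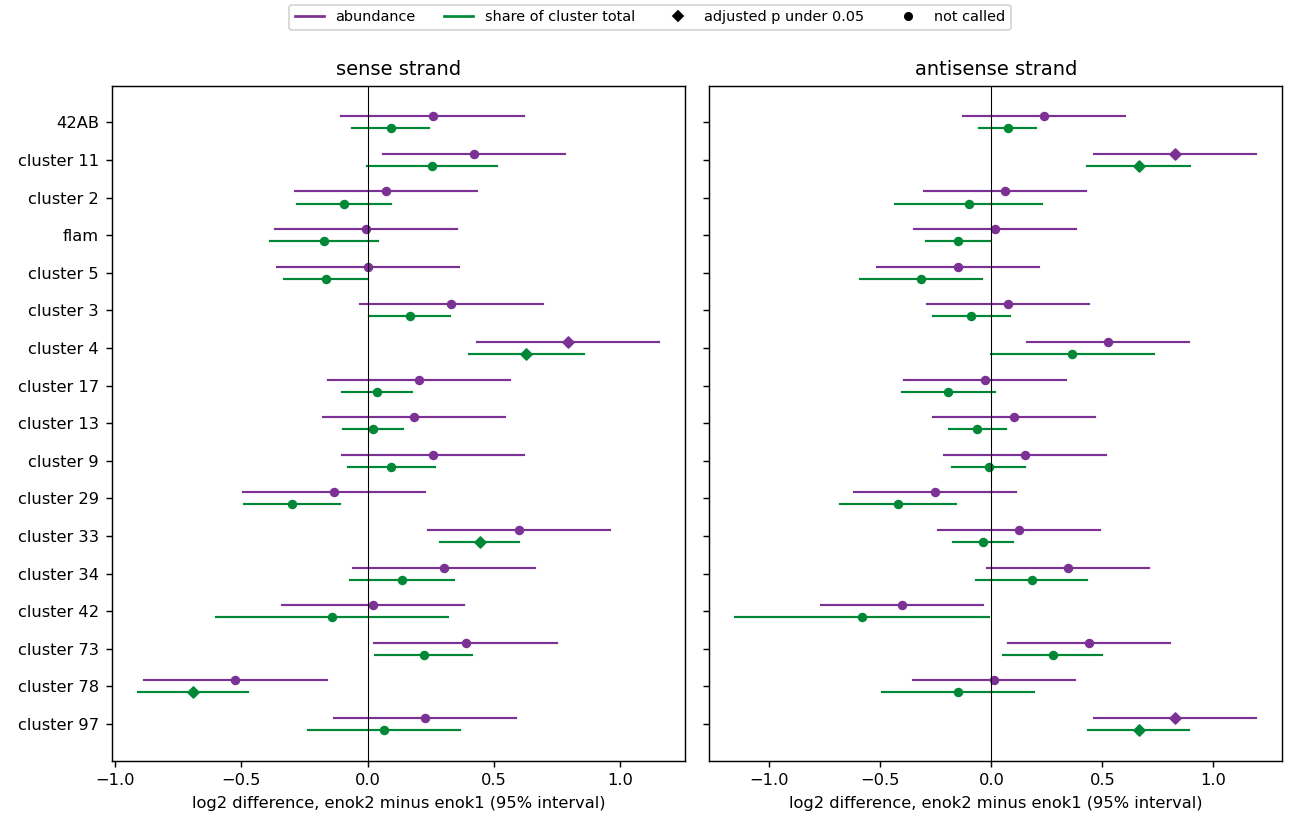
Points give the log2 difference of enok2 minus enok1 and lines its 95% confidence interval from limma for 17 named clusters on the sense (left) and antisense (right) strand, in abundance (purple) and share of the cluster total (green), and diamonds passed an adjusted p under 0.05. Sense piRNAs of clusters 4 and 33 and antisense piRNAs of clusters 11 and 97 stand to the right of 0 and sense piRNAs of cluster 78 to the left, while the interval of 42AB includes 0 on both strands.

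The strands of a cluster mostly had differences of the same sign, although only cluster 7 was called on both. Among clusters called on either strand, the sign was the same in 4 of 5 in abundance and 8 of 10 in share. Over all clusters, 115 sense and 111 antisense differences were positive in abundance, and 57 and 50 in share. The log2 difference had the same sign on both strands in 108 of the 140 clusters in abundance and in 93 in share, and across clusters, which share their libraries, Pearson's r between the strands was 0.44 in both measures. Clusters were also split by their WT strand balance into 123 balanced clusters, with 20 to 80% sense piRNAs, and 17 skewed ones. Balanced clusters, which are 123 of the 140, held 1 of the 2 sense calls in abundance and 7 of the 8 in share. They held 0 of the 3 antisense calls in abundance and 1 of the 3 in share. Over all clusters, 1.43% (abundance) and 5.71% (share) were called for sense and 2.14% in each measure for antisense piRNAs. These calls are too few to compare the classes. The antisense calls among skewed clusters include clusters 11 and 97, which are not counted as independent.

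Small RNAs from genic 3′ UTRs were compared next, and no 3′ UTR passed in either direction. The sense sum over all features was 19678, 22610 and 23951 in enok1 and 23237, 23870 and 22933 in enok2, with overlapping groups (exact permutation p = 0.5), so that enok2 had 105.7% of the enok1 mean, and 100.3% without enok1 replicate 1. As a percent of the cluster total it was 5.99% ± 0.57 and 5.66% ± 0.39 (SD, n = 3 each, exact permutation p = 0.5), against 3.92% in WT. The antisense sum was 1343 ± 181 and 1360 ± 21.7 (exact permutation p = 0.9). Of 298 sense 3′ UTRs with enough signal to test, 0 were called (limma, 0%), while 21 in abundance (7.05%) and 37 in share (12.4%) had an unadjusted p under 0.05, and 10 and 31 with their own variance (0 of these called). Of 23 antisense 3′ UTRs 0 were called (limma, 0%), with 2 (8.7%) and 4 (17.4%) at an unadjusted p under 0.05 and the same numbers with their own variance (0 called).

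Within that result, the tested 3′ UTRs of eggshell genes all had positive log2 differences. Chorion (Cp) and vitelline membrane (Vm) proteins are secreted by follicle cells to build the eggshell in late oogenesis. Of 25 listed eggshell genes 13 had a feature in the tables, and 8 genes with 10 features had enough signal to test. All 10 differences in log2 abundance were positive, with a median of 0.84, whereas 44% of all 298 sense 3′ UTRs were positive and their median was −0.03. In log2 share all 10 were positive too, beside 18.1% of all features, although the mean share of both Cp38 features was lower in enok2 (0.965-fold and 0.978-fold). None of the 10 was called, and 6 had an unadjusted p under 0.05, beside 7.05% of all sense 3′ UTRs in abundance and 12.4% in share. In abundance the alleles did not overlap in 2 of them, Cp18 and Vm26Ab, beside 3.02% of all sense 3′ UTRs with enok2 on the higher side. In share the alleles overlapped in all 10.

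The chorion gene Cp15 gave the most abundant sense 3′ UTR small RNAs in WT. It had 967, 2251 and 3007 in enok1, 3438, 5594 and 2870 in enok2 and 5542, 4590 and 2682 in WT, a log2 difference of 1.03 ± 0.38 (limma adjusted p = 0.366) that fell to 0.55 without enok1 replicate 1. The groups overlapped, and the spread within each of the 3 groups was wide. Cp15 alone made up 4.91% to 12.6% of the sense 3′ UTR sum in the enok1 libraries and 12.5% to 23.4% in the enok2 libraries, and without it the sum of enok2 was 96.9% of that of enok1. Cp18 had 133, 16.3 and 91.8 in enok1 and 394, 189 and 160 in enok2, against 491, 353 and 367 in WT. All enok2 libraries were higher, with a log2 difference of 1.94 ± 0.62 (limma adjusted p = 0.322). Replicate 2 of enok1 lay far below the rest, and without it the difference was 1.05.

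The other chorion genes separated the alleles less. Cp19 had 111, 26.1 and 36.0 in enok1 and 118, 69.0 and 45.9 in enok2. Cp36 had 56.4, 39.0 and 43.7 against 58.2, 75.8 and 53.4. The alleles overlapped in both, with log2 differences of 0.60 and 0.42 (limma adjusted p = 0.91 and 0.73). The 2 features of Cp38, which start at the same position, had log2 differences of 0.32 and 0.31 that turned negative when 1 library was left out (lowest −0.11 and −0.12). In share Cp19 and both Cp38 features likewise turned negative with 1 library left out (lowest −0.07, −0.27 and −0.25).

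Among the vitelline membrane genes, Vm26Aa had 19.1, 7.77 and 9.71 in enok1 and 43.0, 31.3 and 18.8 in enok2, a log2 difference of 1.30 ± 0.34 (limma adjusted p = 0.28) in groups that just overlapped. Its second feature, whose signal is nearly the same, had a difference of 1.28. Without enok1 replicate 1 both features of Vm26Aa were called (adjusted p = 0.0312), and so they were without enok2 replicate 3 (0.0169). Vm26Ab had 5.43, 4.92 and 6.87 in enok1 and 16.6, 9.71 and 7.06 in enok2, a log2 difference of 0.78 ± 0.26 (limma adjusted p = 0.34). Vm34Ca had 8.14, 6.06 and 10.1 against 20.3, 18.9 and 9.81, with a difference of 0.89 ± 0.27 (limma adjusted p = 0.322) that was called without enok2 replicate 3 (0.0169). Replicates 1 and 2 of enok2 were higher than every enok1 library in all 3 genes.

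The eggshell genes also followed single libraries. Among the 6 mutant libraries, enok2 replicate 1 was highest in 8 of the 10 features and enok2 replicate 2 in the other 2. The lowest was enok1 replicate 2 in 9 and enok1 replicate 1 in 1. Replicate 3 of either allele was neither highest nor lowest in any of the 10 features.

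**Figure D5:**
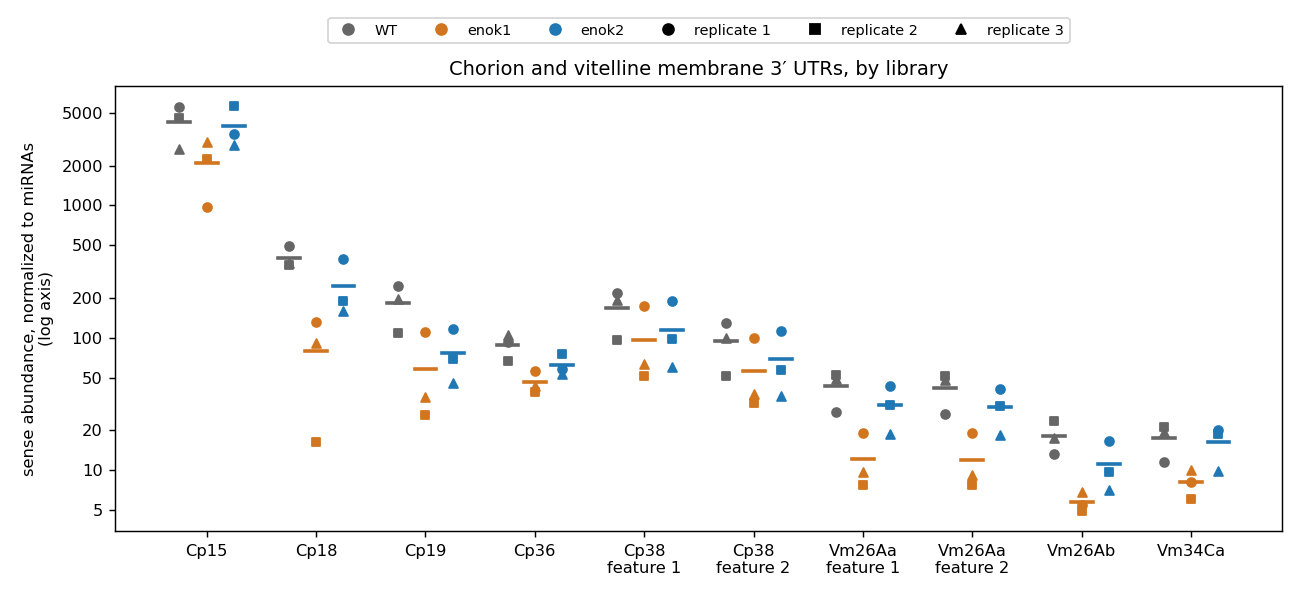
Points give the sense abundance of single libraries (log axis) for the 10 tested 3′ UTR features of 8 eggshell genes, with colour for the group, shape for the replicate and a short line for the mean. The mean of enok2 lies above that of enok1 in all 10 features, but single libraries overlap in all except Cp18 and Vm26Ab.

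Other gene groups gave no called 3′ UTR. Of the follicle cell list, 2 genes with 3 features had enough signal. The follicle cell transcription factor gene traffic jam (tj) had 49.4, 64.2 and 75 in enok1 and 61.5, 52.7 and 56.1 in enok2, a log2 difference of −0.13. In share its 2 features were lower in every enok2 library (log2 difference −0.29, limma adjusted p = 0.408 and 0.416), as were 18.8% of all sense 3′ UTRs. The yolk protein gene Yp1 had 15.2, 39.4 and 39.6 against 26.5, 28.7 and 23.5, a log2 difference of −0.14. In abundance the alleles overlapped in both, and both differences turned positive with 1 library left out (highest 0.01 for tj and 0.09 for Yp1). Summed over the whole follicle cell list, the level was 135 to 221 in enok1 and 156 to 172 in enok2.

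Of the germline and maternal list, oskar (osk), whose RNA is localized to the posterior of the oocyte, had a log2 difference of −0.18, whereas the one tested gene of the piRNA pathway list, Nxf3, which exports cluster transcripts from the nucleus, had one of −0.11. Of the muscle list only Tm1 was tested, with −0.20. The ribosomal protein genes had 13 tested features with a median difference of 0.01, between −0.29 and 0.20. No feature of these lists had an unadjusted p under 0.05 in either measure. Of 8 listed Enok complex and target genes, 3 had a feature and 0 had enough signal to test.

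The sense 3′ UTRs outside the eggshell list that differed most without overlap were few and low. The superoxide dismutase gene Sod3 had 10.3, 14.4 and 8.49 in enok1 and 18.4, 19.9 and 18.1 in enok2, a log2 difference of 0.74 ± 0.20 (limma adjusted p = 0.28). The Ste20-like kinase gene Stlk and the furin protease gene Fur2 had log2 differences of 0.63 and 0.62 (limma adjusted p = 0.352 and 0.322). Lower in every enok2 library was Pen, which encodes an importin alpha, with 20.3, 18.2 and 13.8 in enok1 and 8.51, 9.23 and 11.4 in enok2 (log2 difference −0.78 ± 0.20, limma adjusted p = 0.28). The next 4 by size on the lower side among those without overlap and with an unadjusted p under 0.05, CG40160, snoRNA:hts-a, Pino and the actin capping protein gene cpa, had log2 differences from −0.72 to −0.61. Groups without overlap made up 3.02% (enok2 higher) and 6.04% (enok2 lower) of sense 3′ UTRs.

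On the antisense strand, the features of 2 annotated antisense RNAs had the largest differences, in small RNAs from the strand opposite to these RNAs. The feature of asRNA:CR43636 had 8.14, 15.9 and 14.2 in enok1 and 17, 26.2 and 27.1 in enok2 (log2 difference 0.85 ± 0.27, limma adjusted p = 0.146). The feature of asRNA:CR31144 had 9.49, 13.3 and 10.5 against 18.9, 19.9 and 15.7 (0.67 ± 0.17, limma adjusted p = 0.0909). In both, all enok2 libraries were above all enok1 libraries, which was so in 17.4% of the antisense 3′ UTRs tested, and both were called without enok1 replicate 2 (adjusted p = 0.0306). The abundant sense features of 7SLRNA:CR32864, the RNA of the signal recognition particle, and of Myc overlapped between alleles, with log2 differences of 0.08 and 0.15.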

How the data were processed

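Small RNA libraries of 3 WT, 3 enok1 and 3 enok2 germline clone ovaries were used, grouped by their labels. The authors deposited 4 tables of signal (abundance), for clusters and genic 3′ UTRs on each strand. Per the study's methods and the submitters' processing notes, reads were trimmed with Trimmomatic, mapped to dm3 with piPipes 1.4.12 without mismatches and normalized to miRNAs. Unique mapping is stated, but 8.00 to 11.3% of low 3′ UTR values were 1 read's worth divided by 2, 3 or 4, so reads may have been shared between positions. Only 34.1 to 36.9% were whole reads, so many low values were neither. Cluster values were not examined in this way. The study reports no uniquely mapping piRNAs in WT for cluster 128, but here its sense abundance in WT was 176, 203 and 197. Whether the cluster values include reads that map to several positions was not tested. Whole reads could not be recovered, and no count test was run.

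Abundance and share (scaled to a total of 1000000) were tested on log2(value + 1) with limma 3.58.1 in R 4.3.3 (lmFit, eBayes, no trend), on the 6 mutant libraries only and for each strand. Adding 1 makes the fold changes of low features appear smaller than they are. P-values were adjusted by Benjamini-Hochberg over each table. In the abundance fits of clusters, limma gave every cluster the same standard error, pooled over clusters that share the same libraries. A cluster's own spread therefore does not enter these p-values or confidence intervals. In linear fits with own variances, the clusters called in abundance (4, 11, 97, 98 and 132) had adjusted p between 0.615 and 0.793. Totals were compared by exact permutation tests. Identical 3′ UTR features were counted once (8510 to 4601), and those with a mean of at least 10 over all 9 libraries were tested. RefSeq names of Release 6 matched 8346 features. The labels do not say whether replicates came from separate animals, so p-values refer to these libraries only.

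Named clusters were a fixed list, the 10 largest in WT and all called ones. Named 3′ UTRs were tested eggshell members, the 5 largest rises and falls without overlap at an unadjusted p under 0.05, the 5 most abundant in WT and up to 3 members of each other list. Members and lists were chosen with earlier results of these data known. The limma fits were checked on simulated data. Alternatives were other pseudocounts and filters, own variances, all 9 libraries, an intensity trend, other scalings, a replicate block and each library left out.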

Additional observations from a re-analysis of the deposited data

How the results depend on the processing

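No total or percentage moved by more than the spread between replicates under any alternative, and no called cluster changed sign. The counts of calls moved. With each feature's own variance, 0 clusters were called in all 4 comparisons. With all 9 libraries in the fit, 4 and 14 sense clusters (abundance and share) and 5 and 12 antisense clusters were called, in place of 2, 8, 3 and 3, and 2 antisense 3′ UTRs in abundance. A median-of-ratios scaling gave 6 sense clusters in abundance, 2 higher and 4 lower. Without a filter on low values, 2 (abundance) and 9 (share) antisense 3′ UTRs were called. With 1 library left out, the calls ranged from 1 to 4 and from 5 to 11 in sense clusters (abundance and share), from 0 to 4 and from 0 to 17 in antisense clusters, from 0 to 3 in sense 3′ UTRs (abundance) and from 0 to 2 and 0 to 1 in antisense 3′ UTRs. The causes were not tested. Without enok1 replicate 1, 2 sense clusters were again called in abundance, but 0 of the same ones. Of the 16 calls, 9 were lost without enok1 replicate 1 and 9 without enok2 replicate 1, and 4 (clusters 4, 7, 33 and 78, sense share) were kept whichever library was left out.

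Pairing by replicate number was not assumed, since not every same-numbered pair of deviations correlated above 0.1. With 3 libraries for each allele, this check cannot exclude a pairing. In abundance the same-numbered correlations were −0.21, −0.05 and 0.17 over clusters and 0.22, 0.05 and 0.14 over sense 3′ UTRs. Differently numbered pairs lay between −0.41 and 0.47 over clusters and between −0.22 and 0.08 over sense 3′ UTRs. With the replicate block, 2 and 7 sense clusters (abundance and share), 2 and 0 antisense clusters, 0 and 0 sense 3′ UTRs and 2 and 1 antisense 3′ UTRs were called, and the cluster total of enok2 was 114.2% of enok1.

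The 95% interval reached 0.36 (log2) to either side for every sense cluster in abundance and up to 2.30 for sense 3′ UTRs.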
